A study of Homo sapiens with 2 samples.

Results

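The 9 genes described here belong to the antioxidant response that the transcription factor NRF2 controls, and were measured in HEL cells, a human erythroleukemia cell line, with and without the 3,3′-diindolylmethane derivative L1. The genes were chosen by name, as HMOX1, NQO1, GCLC, GCLM, SLC7A11, TXNRD1, SRXN1, OSGIN1 and AKR1C1, and all 9 were found among the 61806 genes of the count table. L1 was given at 1 µM for 24 h to one HEL culture, and the control culture received 0.5% DMSO. Both are labelled wild type, and how much DMSO the L1 culture received is not given in the sources used here. The mRNA of each culture, captured on beads, gave 1 sequencing library, with 32556872 counts for DMSO and 27135647 for L1. With 1 library per condition no test was possible, no difference below has a replicate check, and effects of L1 and other differences between both cultures cannot be told apart. Against the labelled cell type, 17 of 18 erythroid and megakaryocyte markers had at least 100 counts in both, while the lymphoid markers CD3D, CD3E, CD8A and MS4A1, the granulocyte markers MPO and ELANE and the epithelial markers EPCAM and KRT19 were at 0 in both. Of the markers listed for these other lineages, those that reached 100 counts in either library were, in DMSO and L1 respectively, CD4 (1105 and 925), IL7R (739 and 356), LYZ (647 and 486), KRT18 (439 and 376), KRT8 (342 and 234) and CD79A (113 and 60).

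NRF2, the product of NFE2L2, is held at a low level by KEAP1, which delivers it to a CUL3 and RBX1 ubiquitin ligase. When electrophiles or oxidants modify KEAP1, NRF2 accumulates, pairs with a small MAF protein and binds antioxidant response elements near its target genes. The targets make glutathione, regenerate thioredoxin, reduce quinones and carbonyls and break down heme. HMOX1 is in addition held down by BACH1, a repressor that binds the same kind of element and is released by heme, which matters in cells of the red lineage that make hemoglobin. Several of these genes also answer to other factors, SLC7A11 to ATF4 and NQO1 to the aryl hydrocarbon receptor.

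The 9 genes did not move together. HMOX1 and OSGIN1 were more than 2-fold higher in the L1 library, AKR1C1 was just under 2-fold higher, GCLM was 1.33-fold higher, and the other 5 genes lay between 0.873-fold and 1.15-fold. Fold changes and log2 ratios of single genes are L1 over DMSO on counts scaled by edgeR's TMM method, without a prior count, with an exact 95% interval from the split of a gene's counts between the libraries, which covers counting error only. Since whole cultures were sequenced, a larger share of cells with a transcript and more of it per cell cannot be told apart. For counts of genes past 2-fold, a prior count of 2 was added and a minimum of 10 counts in either library was asked for, which all 9 genes passed. Of these, 2 of 9 were at least 2-fold higher, where 7.12% of the 18123 genes kept were, and 0 of 9 passed 2-fold downward, where 4.83% did. At 1.5-fold, 3 of 9 were higher and 0 lower, against 13.8% and 11.4% of the genes kept, and at 3-fold 1 of 9 was higher and 0 lower, against 3.13% and 1.9%. The median log2 ratio was 0.21 over the 9 genes and -0.0040 over all genes kept. Because the 9 genes were chosen with earlier results of these data known, these shares and medians are descriptions and cannot show an enrichment.

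**Figure D1:**
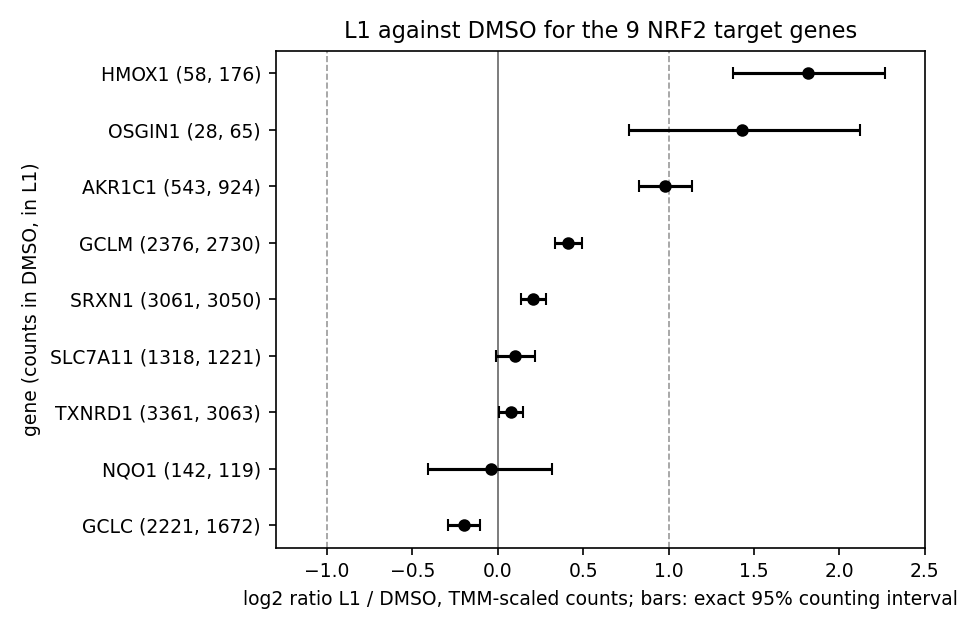
Log2 ratio of L1 over DMSO (x axis, TMM-scaled counts) for each of the 9 genes (y axis, with the counts of the DMSO and the L1 library), where bars are exact 95% counting intervals and dashed lines mark 2-fold. HMOX1 is the only gene whose whole interval, from 1.38 to 2.27, lies past 2-fold, and GCLC the only one whose whole interval, from -0.29 to -0.10, lies below 0.

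HMOX1 (ENSG00000100292, chromosome 22 from 35380361 to 35394214 on GRCh38, plus strand) encodes heme oxygenase 1, the inducible enzyme that opens the heme ring to biliverdin, iron and carbon monoxide. It had 58 (DMSO) and 176 (L1) counts, and its deposited FPKM (a level per transcript length and library size) was 0.791 and 2.78. The L1 library was the higher of the pair by 3.52-fold (95% interval 2.60 to 4.82), a log2 ratio of 1.81. No annotated exon of another gene overlaps HMOX1, and 1.67% of the 31-base words of its transcripts occur in transcripts of another gene. Its log2 ratio exceeded that of 97.5% of the 18123 genes kept, at rank 456 from the highest. Among genes that reached 100 counts in either library, 3.13% were at least 2-fold higher. HMOX1 reached 100 counts in the L1 library only, so it belongs to this set through its higher library. That share is therefore a description and no support for its difference.

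HMOX2, which encodes the constitutive heme oxygenase, differed from HMOX1 in these libraries. It had 619 (DMSO) and 502 (L1) counts, a log2 ratio of -0.09 (95% interval -0.26 to 0.08). The HMOX1 count was 0.0937 times that of HMOX2 in the DMSO library and 0.351 times in the L1 library. This quotient does not depend on the scaling of the libraries, and it was 3.74 times as large with L1 (95% interval 2.70 to 5.24, counting error only). Per length, HMOX1 still lay below HMOX2 in the L1 library, with an FPKM of 2.78 against 5.42. Over 11261 genes with a symbol, an FPKM and at least 100 counts in both libraries, those nearest to HMOX1 in log2 ratio were PSME3 (1.81), RBM15 (1.81), RNF13 (1.81), PPP6C (1.84) and EEF1AKMT3 (1.84). Over 2 libraries, this likeness rests on a single ratio per gene. The interval of HMOX1 itself, from 1.38 to 2.27, is far wider than the gaps between these genes. With 58 counts in DMSO, HMOX1 lies under the minimum asked of them.

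OSGIN1 (ENSG00000140961, chromosome 16 from 83948282 to 83966332, plus strand), an oxidative stress induced growth inhibitor, had the fewest counts of the 9 genes, 28 in DMSO and 65 in L1. It has no deposited FPKM. It was 2.69-fold higher in the L1 library, with an interval from 1.70 to 4.35 that reaches below 2-fold. The separation of HMOX1 and OSGIN1 was not resolved at this depth, because the HMOX1 to OSGIN1 quotient changed 1.31 times with an interval from 0.735 to 2.29. Its level per length was therefore taken as CPM on TMM-scaled libraries over the kilobases of GENCODE exons, and this was 0.253 in DMSO and 0.680 in L1, the lowest of the 9 genes in both libraries. HMOX1 had 0.754 and 2.65 on this scale.

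AKR1C1 (ENSG00000187134, chromosome 10 from 4963253 to 4983283, plus strand) encodes an aldo-keto reductase that reduces carbonyls and steroids. It had 543 (DMSO) and 924 (L1) counts, with FPKM values of 1.95 and 3.84. Its log2 ratio of 0.98 (95% interval 0.83 to 1.14) put it closest to the 2-fold threshold from below, as OSGIN1 was closest from above. It ranged from 0.95 to 1.03 over TMM, total count, DESeq2 and upper quartile scaling, so the scaling decides on which side of 2-fold AKR1C1 falls. AKR1C2 and AKR1C3 are neighbors of closely related sequence, and 35.7% of the 31-base words of AKR1C1 occur in another gene, nearly all of them in AKR1C2, so the split of reads between these genes is uncertain. AKR1C2 had 134 (DMSO) and 136 (L1) counts (log2 ratio 0.23, 95% interval -0.12 to 0.59), and AKR1C3 had 553 and 685 (0.52, 0.36 to 0.69). The AKR1C1 to AKR1C2 quotient was 1.68 times as large with L1 (95% interval 1.28 to 2.20). Summed over the 3 genes, the counts were 1230 and 1745, a log2 ratio of 0.72 (95% interval 0.61 to 0.82).

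GCLM and GCLC encode the modifier and the catalytic subunit of glutamate-cysteine ligase, which carries out the rate-limiting step of glutathione synthesis, and they went in opposite directions. GCLM (ENSG00000023909, chromosome 1 from 93885205 to 93909456, minus strand) had 2376 (DMSO) and 2730 (L1) counts, with FPKM values of 13.8 and 18.3. Its log2 ratio was 0.41 (95% interval 0.33 to 0.49). GCLC (ENSG00000001084, chromosome 6 from 53497341 to 53616970, minus strand) had 2221 (DMSO) and 1672 (L1) counts, with FPKM values of 8.11 and 7.07. Its log2 ratio was -0.20 (95% interval -0.29 to -0.10), and it kept its sign over the 4 scalings, from -0.23 to -0.15. Within each library, where no scaling enters, GCLM had 1.07 times the counts of GCLC with DMSO and 1.63 times with L1. The quotient was thus 1.53 times as large in the L1 library (95% interval 1.40 to 1.66). Whether this is more than the spread between cultures was not tested.

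**Figure D2:**
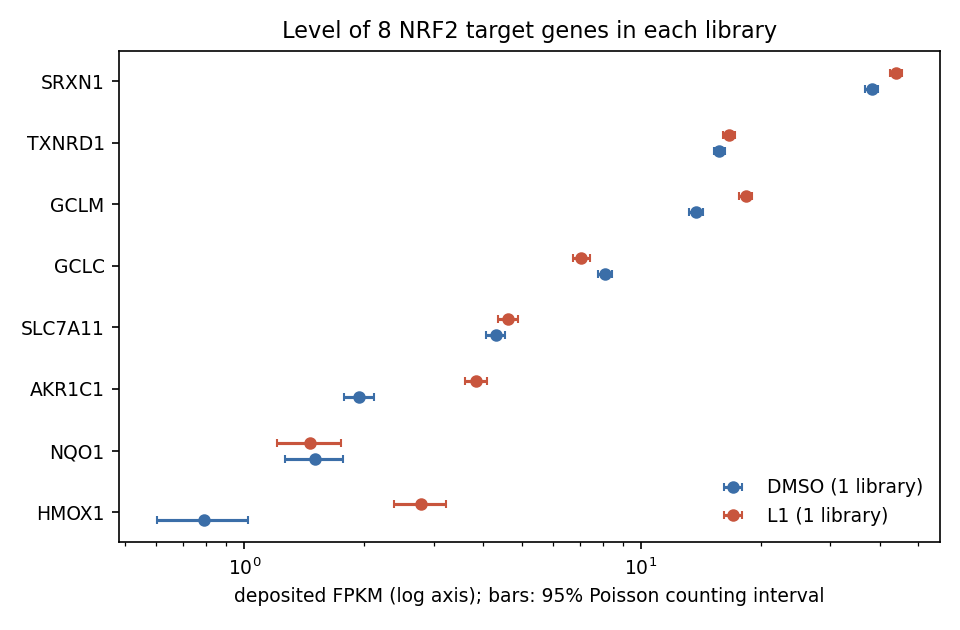
Deposited FPKM (x axis, log scale) of the 8 genes with such a value (y axis, ordered by the DMSO library), with blue points for the DMSO library, red points for the L1 library and bars for 95% Poisson counting intervals. SRXN1 is highest in both libraries at 38.1 and 44.0, while HMOX1 moves from the lowest level, 0.791, to 2.78, above NQO1.

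SLC7A11 (ENSG00000151012, chromosome 4 from 138164097 to 138242349, minus strand) is the light chain of the cystine and glutamate exchanger that brings in the cysteine for glutathione. It had 1318 (DMSO) and 1221 (L1) counts, with FPKM values of 4.30 and 4.62. The TMM interval of its log2 ratio of 0.10, from -0.01 to 0.22, includes 0. Over the 4 scalings the ratio ran from 0.07 to 0.15, and the scaling decides whether its interval includes 0. Its heavy chain SLC3A2 had 3486 and 3574 counts, a log2 ratio of 0.25 (95% interval 0.18 to 0.32). The SLC7A11 to SLC3A2 quotient was 0.904 times as large with L1 (95% interval 0.824 to 0.990).

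TXNRD1 and SRXN1 serve the thiol system, TXNRD1 as the selenoprotein that reduces thioredoxin and SRXN1 as sulfiredoxin, which rescues overoxidized peroxiredoxins. TXNRD1 (ENSG00000198431, chromosome 12 from 104215779 to 104350305, plus strand) had 3361 (DMSO) and 3063 (L1) counts, an FPKM of 15.8 and 16.6 and a log2 ratio of 0.08 (95% interval 0.01 to 0.15). SRXN1 (ENSG00000271303, chromosome 20 from 646615 to 653370, minus strand) had 3061 and 3050 counts, an FPKM of 38.1 and 44.0 and a log2 ratio of 0.21 (95% interval 0.14 to 0.28). Both genes were therefore slightly higher in the L1 library, by 1.06-fold and 1.15-fold. Of the words of SRXN1, 84.9% also occur in ENSG00000270299, a gene annotated over it on the same strand, which had 1 count in each library, and the sum of both genes again gave a log2 ratio of 0.21.

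NQO1 (ENSG00000181019, chromosome 16 from 69706996 to 69726951, minus strand), the quinone reductase often taken as the standard readout of NRF2, had 142 (DMSO) and 119 (L1) counts. Its FPKM was 1.5 and 1.46, and its log2 ratio was -0.04, with an interval from -0.41 to 0.32. Over the 4 scalings its sign changed, from -0.07 to 0.0078. At this depth neither a small rise nor a small fall of NQO1 was detectable, while the interval ends below the 1.33-fold of GCLM and far below 2-fold. The HMOX1 to NQO1 quotient was 3.62 times as large with L1 (95% interval 2.43 to 5.42). The related NQO2 had 301 and 354 counts, a log2 ratio of 0.45 (95% interval 0.22 to 0.67).

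Ordered by FPKM, the DMSO library had SRXN1, TXNRD1, GCLM, GCLC, SLC7A11, AKR1C1, NQO1 and HMOX1 from high to low. In the L1 library GCLM moved above TXNRD1 and HMOX1 above NQO1, and the order was otherwise as before. The counting intervals of neighbors in these orders did not overlap, but a spread between cultures could not be set beside them. The genes past 2-fold had low levels and few counts in the DMSO library, though OSGIN1, without an FPKM, has no place in these orders. The 5 genes with an FPKM above 4 in DMSO had log2 ratios from -0.20 to 0.41. A low level did not always go with a change, since NQO1, with an FPKM of 1.5 in DMSO, had a log2 ratio of -0.04.

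**Figure D3:**
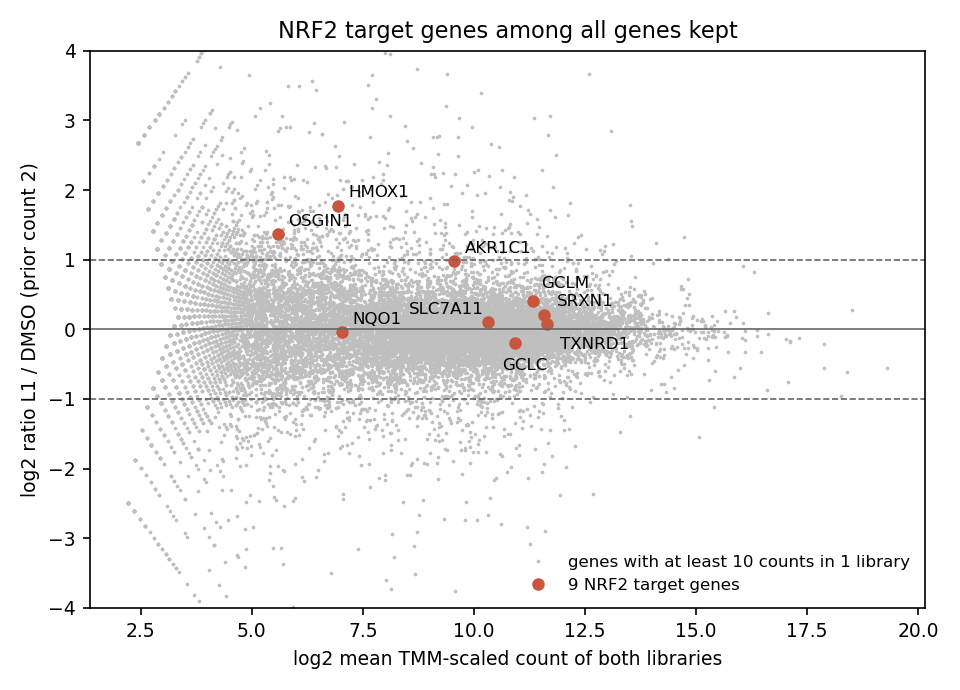
Log2 ratio of L1 over DMSO with a prior count of 2 (y axis) against the log2 mean scaled count of both libraries (x axis) for the genes kept (gray) and the 9 genes (red, named), with dashed lines at 2-fold and 81 genes beyond the plotted range. HMOX1 and OSGIN1 lie above the upper dashed line on the low-count side, where the ratios of all genes are spread most widely.

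Antioxidant response elements hold the core TGACNNNGC, where N is any base. This core was searched on both strands of the RefSeq promoter windows of GRCh38.p14, from 250 bases before to 50 bases after a gene's start, together with the AP-1 heptamer TGAGTCA, which can share bases with the core. RefSeq windows were at hand for 7 of the 9 genes, HMOX1 and SLC7A11 being without one. The core occurred in 13.3% of all 35116 windows, and among the 9 genes in the windows of GCLM and TXNRD1. KEAP1, the inhibitor of NRF2, also holds it. The stretches are printed 5′ to 3′ on the gene's strand with the match in capitals, since GCLM and KEAP1 share one version of the element and since GCLM, but not GCLC, has a match. A match is a description of these letters and no match concerns this window alone. The windows lie around RefSeq starts. Those at the starts 53545101 (GCLC), 69726560 (NQO1), 83953240 (OSGIN1) and 104287032 (TXNRD1) lie wholly inside the gene bounds given above.
GCLM, chr1:93909446-93909474: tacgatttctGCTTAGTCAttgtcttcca
KEAP1, chr19:10502784-10502812: gcccggctctGCTTAGTCAtggtgacctg
TXNRD1, start at 104287032, chr12:104286920-104286948: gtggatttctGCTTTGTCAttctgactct
TXNRD1, start at 104215779, chr12:104215670-104215698: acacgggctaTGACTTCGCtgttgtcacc
OSGIN1, AP-1 heptamer, chr16:83953133-83953159: gggcccctgcTGACTCAcgcttatgaa

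In GCLM and KEAP1 the element lies on the opposite strand and reads TGACTAAGC there, and the match begins 34 and 31 bases before the gene's start. Of the 3 matches in TXNRD1, 1 is shown for each of its starts, and of the 2 in KEAP1 the one shared with GCLM is shown. The heptamer occurred in 4.95% of all windows and, among the 9 genes, in that of OSGIN1. GCLM, which holds the core, had a log2 ratio of 0.41, TXNRD1, which holds it in both windows, had 0.08, and GCLC, AKR1C1, NQO1, SRXN1 and OSGIN1, whose windows do not hold it, ranged from -0.20 to 1.43. A relation between the core and these differences was not tested.

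The genes that control NRF2 stayed under 2-fold in both directions. NFE2L2 itself had 1368 (DMSO) and 1687 (L1) counts, an FPKM of 2.87 and 4.11 and a log2 ratio of 0.52 (95% interval 0.41 to 0.62). KEAP1 had a log2 ratio of 0.11 (95% interval 0.05 to 0.17) from 4253 and 3956 counts, and BACH1 one of 0.20 (0.14 to 0.26) from 4978 and 4934. CUL3, the scaffold of the ligase, was 1.55-fold higher in the L1 library. The small MAF partners split, since MAFF (log2 ratio -0.77, 355 and 179 counts) and MAFK (-0.76, 451 and 229 counts) were lower and MAFG (0.45, 1259 and 1481 counts) was higher. Of the 18 genes of control kept, 0 were past 2-fold in either direction, beside 7.12% upward and 4.83% downward over all genes kept, so this count is no result about the list. Their median log2 ratio was 0.20.

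Other genes known as NRF2 targets had a median log2 ratio of 0.13 over the 38 of 45 kept, with 24 above 0, where 8998 of all 18123 genes kept were above 0. Of the 38, 2 passed 2-fold upward and 0 downward, beside 7.12% and 4.83% of all genes kept, so these counts are no result about the list. UGDH, which makes UDP-glucuronic acid for conjugation, had 269 (DMSO) and 570 (L1) counts, a log2 ratio of 1.30 (95% interval 1.08 to 1.51). ABCC2, an export pump for conjugates, had 37 and 90 counts (log2 ratio 1.5, 95% interval 0.93 to 2.09), and it is named after its values were seen. At the other end, the lowest value of the list was -0.77 with the prior count of 2. The pentose phosphate enzymes PGD (-0.09), TKT (-0.09) and TALDO1 (0.11), thioredoxin TXN (0.39) and peroxiredoxin PRDX1 (0.48) all stayed under 1.5-fold on either side. Across the 10 lists of the pathway and the redox systems, with each gene once and the 9 genes themselves left out, 3 of 142 genes passed 2-fold upward and 0 downward, beside the same 7.12% and 4.83%, and the median was 0.08.

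Downstream of heme oxygenase, the ferritin chains that store the released iron were both higher by about the same factor. FTH1 had 12112 (DMSO) and 14664 (L1) counts, and FTL had 26182 and 32195, with log2 ratios of 0.49 (95% interval 0.45 to 0.52) and 0.51 (0.49 to 0.53). Their quotient changed by 0.985 times (95% interval 0.956 to 1.01). Biliverdin reductase B (BLVRB) had a log2 ratio of 0.33 and biliverdin reductase A (BLVRA) one of 0.16. ABCB6, a porphyrin transporter, had 880 and 1147 counts, a log2 ratio of 0.60. The iron exporter SLC40A1 had -0.05 (95% interval -0.12 to 0.01). Of the 13 genes of heme breakdown and iron storage, a list that does not hold HMOX1 itself, 8 were above 0 (8998 of 18123 over all genes kept), 0 were past 2-fold (7.12% upward and 4.83% downward over all genes kept), and the median was 0.16.

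Genes of glutathione use had a median of 0.01 over 33 genes, with 17 above 0 and 0 past 2-fold, beside the same shares over all genes kept. GSS, which completes glutathione, had a log2 ratio of 0.38, and GSR, which recycles it, had -0.03 (95% interval -0.13 to 0.07). The largest value of the list was upward, in GGT1, a glutathione-degrading enzyme with 19 (DMSO) and 31 (L1) counts and a log2 ratio of 0.92 (95% interval 0.05 to 1.83), which is named after its values were seen. Among genes with at least 100 counts, the 3 farthest from 0 were lower in the L1 library, and the highest was GGCT, a gamma-glutamyl cyclotransferase, with 1239 (DMSO) and 1534 (L1) counts and 0.52 (95% interval 0.41 to 0.63). GPX1, the cytosolic glutathione peroxidase, had 10591 (DMSO) and 6261 (L1) counts (log2 ratio -0.55), GSTM4 had 1114 and 637 (-0.59), and SLC25A40, a relative of the mitochondrial glutathione carrier, had 1738 and 997 (-0.59). In the thioredoxin and peroxiredoxin list the median was 0.17 over 23 genes and the lowest value -0.70, and 1 gene was at least 2-fold higher. That gene was TXNIP, which binds and inhibits thioredoxin and is not a member of the antioxidant defense itself, with 1005 (DMSO) and 2383 (L1) counts (log2 ratio 1.46, 95% interval 1.35 to 1.57).

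**Figure D4:**
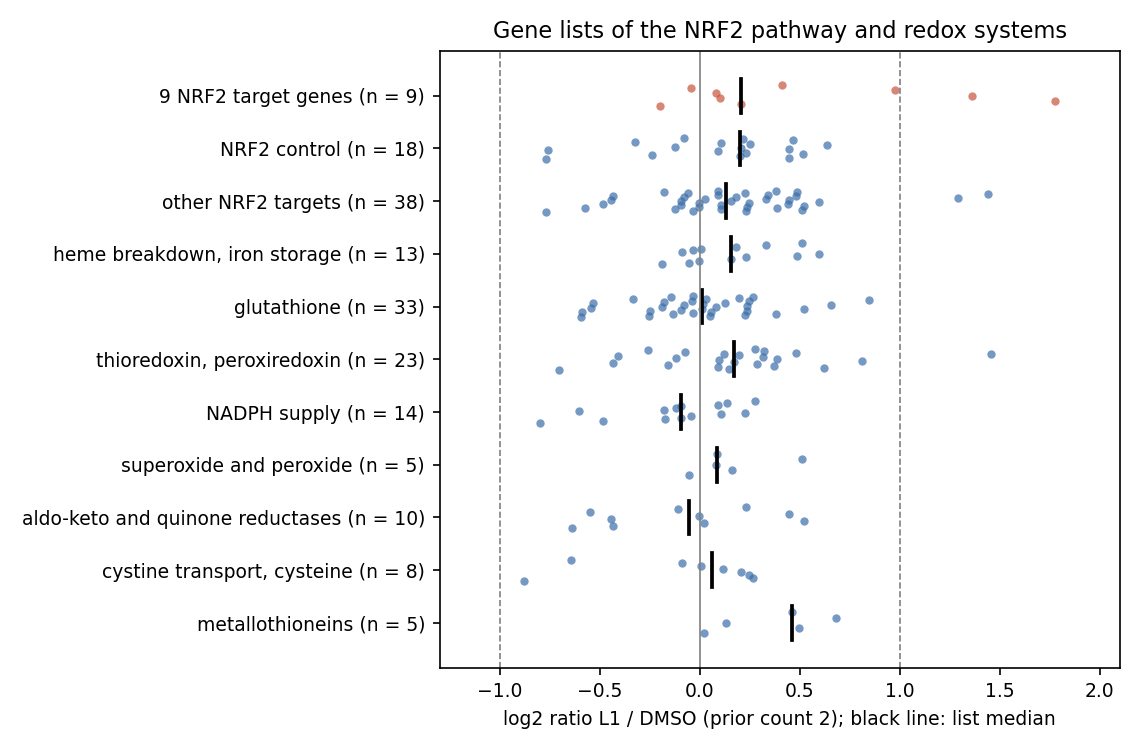
Log2 ratio of L1 over DMSO with a prior count of 2 (x axis) for each gene kept (points) in the 9 genes (red) and in 10 lists of the NRF2 pathway and redox systems (blue, y axis with the number of genes), with black lines at each list's median and dashed lines at 2-fold. Medians lie between -0.09 for NADPH supply and 0.46 for the metallothionein list, which also holds MTF1 and SLC30A1. HMOX1, OSGIN1, ABCC2, TXNIP and UGDH are the points past 2-fold.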

How the data were processed

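Per the labels and the paper's methods, the authors aligned reads with HISAT2 2.1.0 to hg38, and the processing notes also name fastp and StringTie. The authors deposited raw read counts per Ensembl gene, without normalization, and FPKM values for 13924 genes. The counting program, gene annotation and use of strand are not given in the sources used here, so reads of antisense or near-identical genes may be assigned to either. The FPKM values carry the library ratio of 1.16 that edgeR's TMM method gives here.

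Counts were scaled with TMM (edgeR 4.0.16, R 4.3.3). Size factors from DESeq2 1.42.0 served as an alternative. Intervals and lists were computed in Python 3.11.15 (scipy 1.17.1, pandas 2.3.3). Genes with at least 10 counts in 1 library were kept, with a prior count of 2 for counts of genes past 2-fold and for medians. Intervals are exact (Clopper-Pearson for the split of a gene's counts, conditional for quotients, Poisson for FPKM) and cover counting error only. Functions were tested on simulated counts.

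The 9 genes, the lists and the motifs were chosen with earlier results of these data known. From each list were named the genes at least 2-fold changed with at least 100 counts, or else the 3 farthest from 0 among those with at least 100 counts in the higher library, with NFE2L2, KEAP1 and BACH1 in any case. Other genes are named for their role. Positions and shared words are those of GENCODE (GRCh38, release 29), where 58254 of the identifiers were found, and promoter sequences from RefSeq (GRCh38.p14). The alternatives were other scalings, log2(FPKM + 1) and log2(FPKM + 0.1), other prior counts, minimum counts and thresholds, and summed overlapping or related genes.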

Additional observations from a re-analysis of the deposited data

How the results depend on the processing

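No paired analysis was possible because DMSO and L1 have 1 library each, and the spread between cultures was not measured. Of 50 values of the 9 single genes under the alternatives, 47 stayed within the gene's counting interval and 0 changed sign outside it. The 3 others were HMOX1 at 1.08 and AKR1C1 at 0.72 with log2(FPKM + 1), where the pseudocount shrinks low values by construction, and AKR1C1 at 0.72 when summed with AKR1C2 and AKR1C3. Most of the 50 values had no or little room to differ, so their number is weak support. Each other scaling shifts all 9 genes by the same amount, which stays inside even the narrowest interval. That is the interval of TXNRD1, from 0.01 to 0.15, where the scalings gave 0.05 to 0.13. The FPKM values carry the TMM library ratio, so with them only the pseudocount could move a value. Summing overlapping genes added 0 counts for GCLC and 1 count per library for SRXN1. The number of the 9 genes at least 2-fold higher went from 2 to 1, which is HMOX1, with at least 100 counts in 1 library, with log2(FPKM + 1), with log2(FPKM + 0.1), with a threshold of 3-fold and with the whole interval past 2-fold. OSGIN1 is not among the genes with 100 counts or an FPKM, and HMOX1 reached 100 counts in the L1 library only. Total count scaling, upper quartile scaling and the 1.5-fold threshold each gave 3 by adding AKR1C1. The median of the 9 genes stayed between 0.14 and 0.26. Over the pathway genes together, 3 higher and 0 lower became 6 and 1 with no minimum count, 1 higher with log2(FPKM + 1), 10 higher and 11 lower at 1.5-fold, and 0 higher at 3-fold. In the separate lists, 295 of 300 values stayed within the list's interval or within 1.5 times, 5 counts moved and 0 medians did. For the lists of 5 and 8 genes kept, this interval was the full range of the list, so their medians could hardly leave it. Few counts limit OSGIN1, HMOX1 and NQO1 most.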

Other observations

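Metallothioneins are small metal-binding proteins that respond to zinc and oxidants. Beyond the antioxidant genes, the metallothioneins MT2A, MT1X and MT1F were on the higher side in the L1 library. MT2A had 422 (DMSO) and 584 (L1) counts, a log2 ratio of 0.68 (95% interval 0.50 to 0.87), MT1X had 130 and 159 (0.50, 0.16 to 0.85), and MT1F had 92 and 110 (0.47, 0.06 to 0.89). Their regulator MTF1 had 968 and 914 counts, a log2 ratio of 0.13. The list of 11 also holds MTF1 and SLC30A1, which are not metallothioneins. Over its 5 genes kept, the median was 0.46 and the lowest value 0.02. Of these, 0 were past 2-fold, as in the lists that follow, where 7.12% of all genes kept passed upward and 4.83% downward.

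Genes that supply NADPH had a median of -0.09 over 14 genes, with 5 above 0 and 0 past 2-fold. Mitochondrial enzymes were the lowest among them, with ME2 (malic enzyme) at 2707 (DMSO) and 1341 (L1) counts (log2 ratio -0.80), IDH2 (isocitrate dehydrogenase) at 6153 and 3489 (-0.61) and NNT (transhydrogenase) at 5294 and 3269 (-0.48). In the list of cystine transport and cysteine, CBS, the first enzyme of transsulfuration, had 728 and 341 counts (-0.88), and SLC1A5, a neutral amino acid exchanger, had 15465 and 8549 (-0.64). CTNS, the highest of the list, had 266 and 276 counts (0.27, 95% interval 0.02 to 0.51). The list median was 0.06 over 8 genes, with 5 above 0. SOD2, the mitochondrial superoxide dismutase, had 766 and 942 counts (0.51), CAT had 4073 and 3931 (0.16) and SOD1 had 13622 and 12465 (0.09), and 0 of 5 genes of that list were past 2-fold. Among aldo-keto and quinone reductases, the value farthest from 0 was that of AKR7A3, with 12 (DMSO) and 6 (L1) counts (log2 ratio -0.79, 95% interval -2.49 to 0.74, named after its values were seen). AKR7A2 was lower, with 1551 and 913 counts (-0.55), and the list median was -0.06 over 10 genes with 0 past 2-fold.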
